A study of Mus musculus with 8 samples.

Results

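The megakaryocyte and platelet genes described here are 34 genes that the platelet lineage uses apart from its GPIb receptor. They were found by name among the 36163 gene names of the array. The list was chosen with earlier results of these data known, so the counts below describe it and do not test it. They comprise granule contents, receptors and integrins, cytoskeleton and signalling proteins, and transcription factors of the megakaryocyte. They were read by 45 probes, and 32 of the 34 were bright enough to test, out of 24464 genes tested in all. Each of the 32 was well above background on all 8 arrays, so none of them entered through 1 group alone.

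The RNA came from whole lung of C57BL/6 mice, and every animal had received lipopolysaccharide (LPS), the bacterial cell wall component that inflames the lung, 12 h earlier. One group was wildtype and the other carried a lung-specific GGPPS1 knockout, with 4 mice in each group and 1 single-colour Agilent array per mouse. GGPPS1 (gene symbol Ggps1) is the synthase of geranylgeranyl diphosphate, a lipid anchor of small GTPases. The driver of the deletion, the deleted exons, the age of the mice and any flushing of blood from the lung are not given in the sources used here. Animals without LPS were not analysed here. The series title names LPS-induced acute lung injury and the NLRP3 inflammasome as its subject, and platelet genes are a further readout of the same comparison.

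Megakaryocytes are the large polyploid cells that shed platelets. They lie in the bone marrow and also in the lung circulation, and platelets, although without a nucleus, carry messenger RNA from the megakaryocyte. Platelets are recruited to the lung in LPS injury, where they release chemokines and growth factors from granules and bind leukocytes and vessel wall through integrins and lectin receptors. The lineage is set up by the GATA factor Gata1, the ETS factor Fli1, the repressor Gfi1b and the bZIP factor Nfe2. In RNA from whole tissue, fewer cells of a type and less RNA per cell cannot be told apart.

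The promoters of 6 members are shown as examples. The samples of the 2 genotypes lay fully apart for all 6. The 6 were also picked because each window holds a GATA or ETS word, the short core that such factors bind. Ppbp, Treml1, Alox12, P2ry1 and Nrgn were fully apart as well, and their windows hold none of the GATA and ETS words searched. Any link between these words and the differences was not tested. The windows run from 250 bases before to 50 bases after the start annotated by RefSeq (GRCm38.p6), 5′ to 3′ along the gene. They lie at chr5:90772185-90772484 (plus strand) for the chemokine Pf4, chr11:102469834-102470133 (minus) for the integrin chain Itga2b, chr6:129397047-129397346 (plus) for the lectin receptor Clec1b, chr11:72998895-72999194 (plus) for the ATP-gated channel P2rx1, chr3:59262936-59263235 (minus) for the ADP receptor P2ry12 and chrX:7967861-7968160 (minus) for Gata1. Capitals mark the GATA words AGATAA and AGATAG and the ETS word AGGAAG on either strand, so that a match on the other strand is printed as its reverse complement.
Pf4: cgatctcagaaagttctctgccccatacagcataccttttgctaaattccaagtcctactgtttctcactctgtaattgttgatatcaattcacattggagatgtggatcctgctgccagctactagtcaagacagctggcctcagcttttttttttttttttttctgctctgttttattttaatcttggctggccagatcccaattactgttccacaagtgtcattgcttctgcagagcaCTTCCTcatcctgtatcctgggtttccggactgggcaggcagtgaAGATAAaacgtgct
Itga2b: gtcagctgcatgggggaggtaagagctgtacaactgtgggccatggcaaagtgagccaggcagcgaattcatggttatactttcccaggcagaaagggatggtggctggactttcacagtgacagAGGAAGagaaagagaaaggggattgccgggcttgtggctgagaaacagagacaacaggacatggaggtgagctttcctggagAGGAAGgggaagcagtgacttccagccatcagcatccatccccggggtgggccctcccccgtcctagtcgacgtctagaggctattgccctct
Clec1b: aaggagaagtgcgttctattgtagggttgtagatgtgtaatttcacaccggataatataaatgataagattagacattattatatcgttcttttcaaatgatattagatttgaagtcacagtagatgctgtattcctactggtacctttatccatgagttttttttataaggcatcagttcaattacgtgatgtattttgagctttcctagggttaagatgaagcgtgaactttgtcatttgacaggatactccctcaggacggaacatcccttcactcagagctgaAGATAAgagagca
P2rx1: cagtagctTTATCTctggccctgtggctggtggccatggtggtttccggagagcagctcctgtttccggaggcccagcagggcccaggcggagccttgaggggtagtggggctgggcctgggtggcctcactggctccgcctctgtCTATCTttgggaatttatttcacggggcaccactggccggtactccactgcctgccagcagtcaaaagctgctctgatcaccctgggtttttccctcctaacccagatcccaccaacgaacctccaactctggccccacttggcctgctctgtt
P2ry12: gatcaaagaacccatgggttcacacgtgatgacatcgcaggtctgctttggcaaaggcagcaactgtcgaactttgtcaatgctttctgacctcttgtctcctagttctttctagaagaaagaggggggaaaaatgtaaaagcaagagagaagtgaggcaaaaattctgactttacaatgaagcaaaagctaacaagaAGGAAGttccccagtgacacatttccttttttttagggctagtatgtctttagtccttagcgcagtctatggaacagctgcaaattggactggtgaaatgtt
Gata1: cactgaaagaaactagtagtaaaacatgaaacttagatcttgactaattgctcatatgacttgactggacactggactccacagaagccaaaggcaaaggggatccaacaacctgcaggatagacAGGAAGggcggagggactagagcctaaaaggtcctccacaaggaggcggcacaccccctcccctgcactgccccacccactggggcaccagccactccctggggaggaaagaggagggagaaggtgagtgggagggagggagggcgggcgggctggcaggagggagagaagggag

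Pf4 held an ETS word whose first base was at -9 and a GATA word at 37 from the annotated start, Itga2b held ETS words at -125 and -43, P2rx1 held GATA words at -242 and -104, and Clec1b held 1 at 38. P2ry12 and Gata1 each held 1 ETS word, at -52 and -125. Of the 34 members, 28 matched the RefSeq table by symbol, with 31 windows in all. AGATAA or AGATAG stood in 25.8% of these windows and in 18.6% of all 32851 windows of that length, AGGAAG in 41.9% against 35.4%, and both kinds together in 9.68% against 6.65%. The RUNX word TGTGGT stood in 6.45% against 16.8%, and the NF-E2 and AP-1 word TGAGTCA in 3.23% against 5.20%. Both strands were searched, and no word lies within another. Other forms of these words, such as the TGATAA in the Clec1b window, were not searched or marked. These matches are letters in a window, and binding was not measured.

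All 8 arrays lay on 1 slide, wild-type in row 1 and knockout in row 2, so slide row and genotype cannot be told apart. Between 61.5% and 65.3% of spots were well above background on the wild-type arrays and between 58.1% and 61.6% on the knockout arrays (exact permutation p = 0.0571). The share of spots at the surrogate value, given where a signal is not told from background, did not overlap, with 14.8% to 19.6% on wild-type and 20.2% to 23.9% on knockout arrays (exact permutation p = 0.0286). The part of these in the member differences was not tested. Ggps1 itself differed by -0.06 ± 0.068 (SE), knockout minus wild-type, with 1.26 to 1.40 in the wild-type and 1.22 to 1.32 in the knockout lungs. Because the deleted part is not known and whole lung holds spared cells, this probe does not check the labels. Values below are log2 signals from which the 75th percentile of each array was subtracted, differences are knockout minus wild-type on that scale, and p-values are from limma with Benjamini-Hochberg adjustment over all 24464 genes. The labels count 4 mice per group. The limma p-values set a difference of means against the spread within the groups, an estimate that limma steadies with the variances of all genes.

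Most of these genes had a lower mean in knockout than in wild-type lungs, but no single one passed the test. Of the 32 measured, 27 (84.4%) had a lower mean, against 54.3% of all genes, and the median difference was -0.54 (1.45-fold lower) against -0.03 over all genes. In 15 of the 32 (46.9%) every knockout sample lay below every wild-type sample, against 9.21% of all genes, and in 0 did every knockout sample lie above (6.1% of all genes). At a limma adjusted p under 0.05, 0 members were called, where 0.0286% of all genes were called lower (7) and 0.0327% higher (8), and 11 lower and 6 higher with median centring. At an unadjusted p under 0.05, 18 were lower (56.2%, against 13.4% of all genes) and 0 were higher (10.2% of all genes). Among the 22002 genes that were, like the members, well above background on all 8 arrays, 52.9% had a lower mean, 9.26% were fully apart and lower, and 13.4% had an unadjusted p under 0.05 and were lower. The smallest limma adjusted p of any member was 0.0568, for Alox12, and the count moved with the processing. With normexp background correction 8 members were called lower (1.16% of all genes), without a filter on dim probes 9 (2.17%), and with an intensity trend in the variance 7 (0.916%). With array weights the count was 3 (0.654%) and with a filter on all 8 arrays 2 (0.305%). It stayed at 0 in the authors' deposited value table and after quantile normalization (0.0245% each), with median centring (0.045%) and with the mean of a gene's probes (0.0123%).

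**Figure D1:**
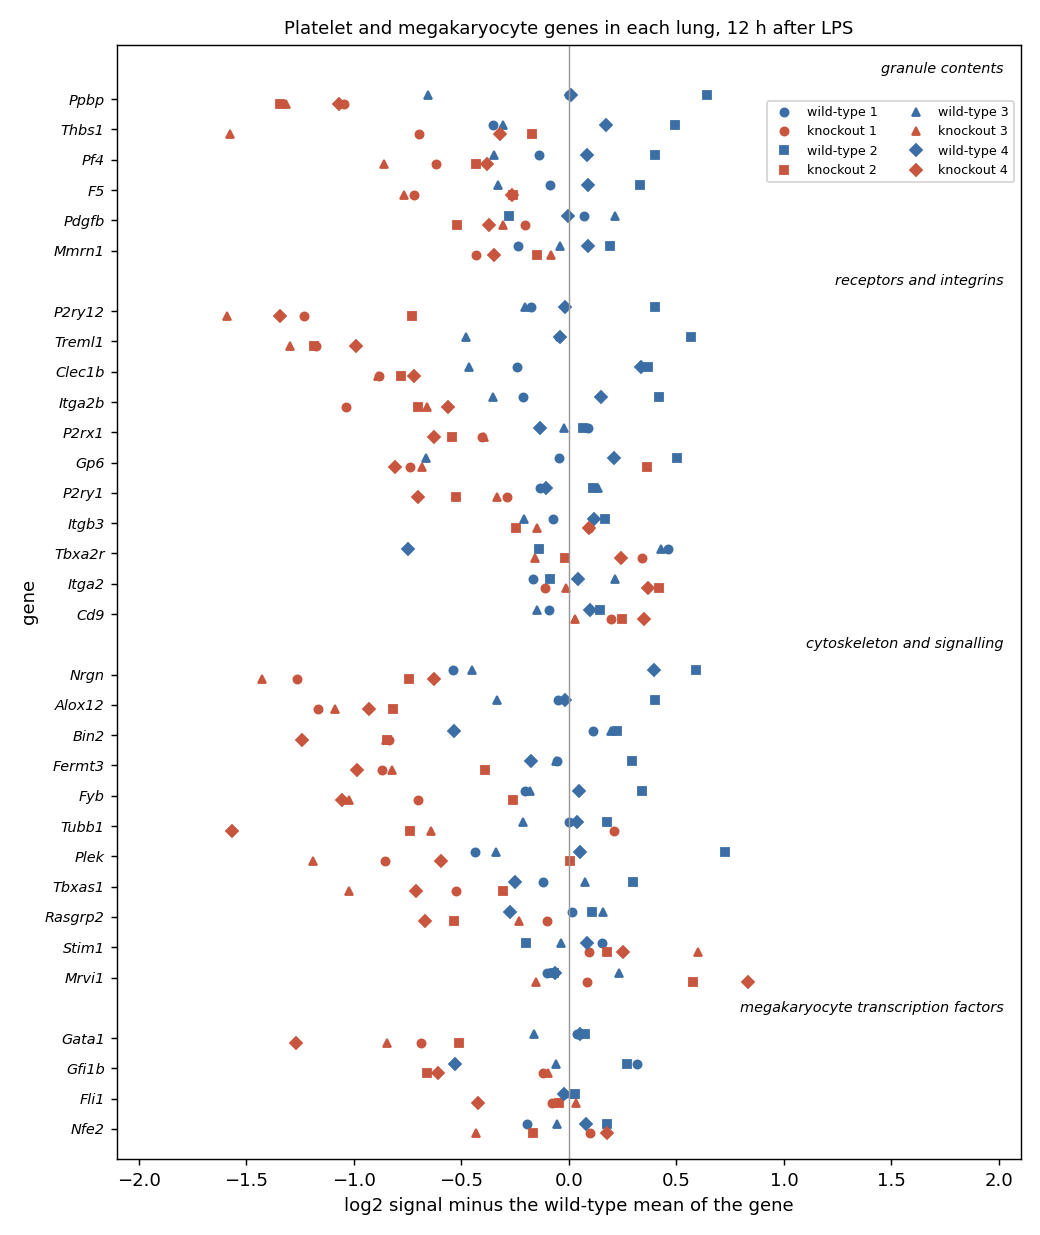
Log2 signal of the 32 measured members in each of the 8 lungs, minus the wild-type mean of that gene (x axis), with 1 row per gene (y axis) under 4 functional headings; colours are genotypes and marker shapes are replicate numbers. For 15 genes, among them Ppbp, P2ry12, Treml1 and Alox12, all knockout points lie left of all wild-type points, whereas Stim1, Mrvi1, Cd9, Itga2 and Tbxa2r have a higher knockout mean.

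Granule contents were lower in 6 of 6 cases, against 54.3% of all genes, with a median difference of -0.54. Ppbp encodes platelet basic protein, the precursor of a neutrophil-attracting CXC chemokine stored in α-granules. Ppbp read 2.86, 3.50, 2.21 and 2.87 in the wild-type lungs and 1.81, 1.51, 1.54 and 1.79 in the knockout lungs, both in the order of replicates 1 to 4, as in all such sentences. The lowest wild-type sample, replicate 3, lay above the highest knockout sample. The difference of -1.19 ± 0.25 (SE), 2.29-fold lower, did not pass (limma, adjusted p = 0.0636). Pf4, platelet factor 4, is the other abundant granule chemokine and its probe lies beside that of Ppbp on chromosome 5 (mm9 chr5:91202275-91202334 and chr5:91198970-91199029). Pf4 read 4.79, 5.33, 4.58 and 5.01 in wild-type and 4.31, 4.49, 4.07 and 4.54 in knockout lungs. The groups were apart by a narrow margin, 4.58 against 4.54, and the difference was -0.57 ± 0.18 (SE; limma, adjusted p = 0.117).

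Pdgfb, the B chain of platelet-derived growth factor, which endothelium also makes, read 5.18, 4.83, 5.33 and 5.11 in wild-type and 4.91, 4.59, 4.81 and 4.74 in knockout lungs. Only knockout replicate 1 overlapped, above wild-type replicate 2, and the difference was -0.35 ± 0.12 (SE; adjusted p = 0.144 with limma). F5, coagulation factor V, which platelets carry in granules, read -0.76, -0.35, -1.004 and -0.59 against -1.40, -0.94, -1.44 and -0.94, so that knockout replicates 2 and 4 lay just above the lowest wild-type sample (difference -0.50 ± 0.18 SE). Thbs1, thrombospondin 1, an adhesive glycoprotein of granules and of many stromal cells, differed by -0.69 ± 0.33 and Mmrn1, multimerin 1, the carrier of factor V that lymphatic endothelium also makes, by -0.25 ± 0.12 (SE). Thbs1 ranged from 3.11 in replicate 3 to 4.52 in replicate 2 among the knockout lungs, and without knockout replicate 3 its difference was -0.40.

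Among receptors and integrins, 8 of 11 measured members were lower (72.7%, against 54.3% of all genes), and the median difference was -0.47. In 6 (54.5%, against 9.21% of all genes) the groups were fully separate and the knockout the lower. P2ry12 is the ADP receptor that sustains aggregation and the target of clopidogrel, and it is known from microglia and some macrophages as well. P2ry12 read -1.33, -0.75, -1.36 and -1.17 in wild-type and -2.38, -1.88, -2.74 and -2.50 in knockout lungs. The gap between the groups, from -1.36 to -1.88, exceeded the SD within either (0.28 and 0.36). The difference was -1.22 ± 0.21 (SE), 2.34-fold lower (limma, adjusted p = 0.0579, and 0.0445 to 0.0596 over 11 settings including this one, under 0.05 in 6 of them). The companion ADP receptor P2ry1, which starts shape change through Gq, differed by -0.46 ± 0.12 (SE; -0.29 with normexp), with groups apart. P2rx1, the ATP-gated cation channel of platelets, read 0.077, 0.052, -0.035 and -0.15 against -0.42, -0.56, -0.41 and -0.64. This was a small difference with little spread, -0.49 ± 0.087 (SE; limma, adjusted p = 0.0608).

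Treml1, a receptor of the platelet α-granule membrane that reaches the surface on activation, read 2.05, 2.66, 1.61 and 2.05 in wild-type and 0.92, 0.90, 0.79 and 1.103 in knockout lungs. The knockout samples were close together (SD 0.13, against 0.43 in the wild-type), and the difference was -1.16 ± 0.20 (SE; 2.24-fold lower; limma, adjusted p = 0.0604). Clec1b encodes CLEC-2, the receptor for podoplanin. Clec1b read 1.66, 2.27, 1.43 and 2.23 against 1.02, 1.12, 1.01 and 1.18, with wild-type replicates 2 and 4 high, and differed by -0.82 ± 0.19 (SE). Its other probes gave -0.72 ± 0.20 and -0.65 ± 0.21 (SE), also with every knockout sample the lower (exact permutation p = 0.0286 each, the smallest that 4 against 4 allows).

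Itga2b and Itgb3 encode the chains of αIIbβ3, the fibrinogen receptor that links platelets in a clot. Itga2b, which only this lineage and its progenitors use, read -0.87, -0.24, -1.01 and -0.51 in wild-type and -1.69, -1.36, -1.31 and -1.22 in knockout lungs. Its groups were apart, and the difference was -0.74 ± 0.19 (SE; limma, adjusted p = 0.0821). Itgb3, which endothelium and macrophages use too, gave different answers with its probes. The brighter one (mm9 chr11:104531672-104531731) read 4.54, 4.78, 4.40 and 4.73 against 4.70, 4.36, 4.46 and 4.70, a difference of -0.05 ± 0.12 (SE) with fully overlapping groups. The dimmer one (mm9 chr11:104528625-104528684) read -1.81, -0.98, -1.34 and -1.10 against -2.31, -2.38, -1.63 and -2.49. That is -0.89 ± 0.24 (SE; exact permutation p = 0.0571), and only knockout replicate 3 lay above a wild-type sample, replicate 1. Which transcripts each of these probes reads was not tested.

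Gp6, the collagen receptor glycoprotein VI, read -1.17, -0.62, -1.79 and -0.91 in wild-type and -1.86, -0.76, -1.80 and -1.93 in knockout lungs. Knockout replicate 2 stood more than a unit above the other knockout samples, the groups overlapped, and the difference was -0.47 ± 0.33 (SE). It was -0.74 without that sample and -0.30 without wild-type replicate 2. The remaining receptors had a higher knockout mean, and none had separate groups. They were the tetraspanin Cd9 (0.20 ± 0.10 SE), which many epithelial cells carry, the collagen integrin chain Itga2 (0.16 ± 0.15) and the thromboxane receptor Tbxa2r (0.10 ± 0.27), which smooth muscle also uses. The thrombin receptors F2rl2 and F2rl3 (PAR3 and PAR4) did not pass the filter: F2rl2 was well above background on 1 wild-type and 0 knockout arrays, and the brighter F2rl3 probe likewise.

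Cytoskeleton and signalling genes were lower in 9 of 11 cases (81.8%, against 54.3% of all genes), with a median difference of -0.68. In 6 (54.5%, against 9.21% of all genes) the groups were apart and the knockout the lower. Alox12, the platelet 12-lipoxygenase of arachidonic acid metabolism, read 1.01, 1.46, 0.72 and 1.04 in wild-type and -0.11, 0.24, -0.03 and 0.13 in knockout lungs. The lowest wild-type sample, at 0.72, lay well above the highest knockout sample, at 0.24, and the difference was -1.0 ± 0.16 (SE), 2.0-fold lower (limma, adjusted p = 0.0568, and 0.0403 to 0.0787 over 11 settings, under 0.05 in 5). Its dimmer probe gave -0.68 ± 0.27 (SE). Tbxas1, thromboxane synthase, which acts beside it on arachidonic acid products and is active in macrophages as well, differed by -0.64 ± 0.18 (SE), with groups apart.

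Bin2, a membrane-curving BAR protein of blood cells that binds the calcium sensor STIM1, read 1.17, 1.28, 1.25 and 0.53 against 0.22, 0.21, 0.21 and -0.18. In both groups replicate 4 lay below the other samples, and the groups were still apart (difference -0.94 ± 0.19 SE; limma, adjusted p = 0.0628). Fermt3, kindlin-3, which switches on integrins in platelets and leukocytes, read 2.01, 2.36, 2.01 and 1.89 against 1.20, 1.68, 1.25 and 1.08, a difference of -0.77 ± 0.15 (SE). Fyb, the adaptor ADAP of integrin activation in platelets and T cells, read 3.38, 3.93, 3.40 and 3.63 against 2.89, 3.33, 2.57 and 2.53. Here knockout replicate 2, at 3.33, came close to the lowest wild-type sample at 3.38, and the difference was -0.76 ± 0.20 (SE; -0.84 ± 0.20 with the dimmer probe).

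Nrgn, neurogranin, a calmodulin-binding protein known from neurons and also present in platelet RNA, differed by -1.02 ± 0.31 (SE), with groups apart. Tubb1, the β1-tubulin that forms the marginal band of the platelet, read -2.41, -2.23, -2.62 and -2.37 in wild-type and -2.20, -3.15, -3.05 and -3.98 in knockout lungs. Its wild-type values were tight (SD 0.16) and its knockout values were not (SD 0.73). Knockout replicate 1 was the highest of all 8 samples, the difference was -0.68 ± 0.33 (SE), and it was -0.98 without that replicate, -0.39 without knockout replicate 4 and -0.28 with normexp. Plek, pleckstrin, the protein kinase C substrate of platelets and leukocytes, differed by -0.66 ± 0.32 (SE; -0.42 without wild-type replicate 2), and Rasgrp2, the exchange factor that activates the small GTPase Rap1, by -0.38 ± 0.15 (SE). The members with a higher mean here were Stim1, the calcium sensor of the endoplasmic reticulum (0.28 ± 0.13, and 0.27 ± 0.13 with its other probe), and Mrvi1, a substrate of cGMP-dependent kinase that smooth muscle also uses (0.34 ± 0.21 SE). Stim1 was at 0.17 without knockout replicate 3, and Mrvi1 at 0.17 without knockout replicate 4.

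**Figure D2:**
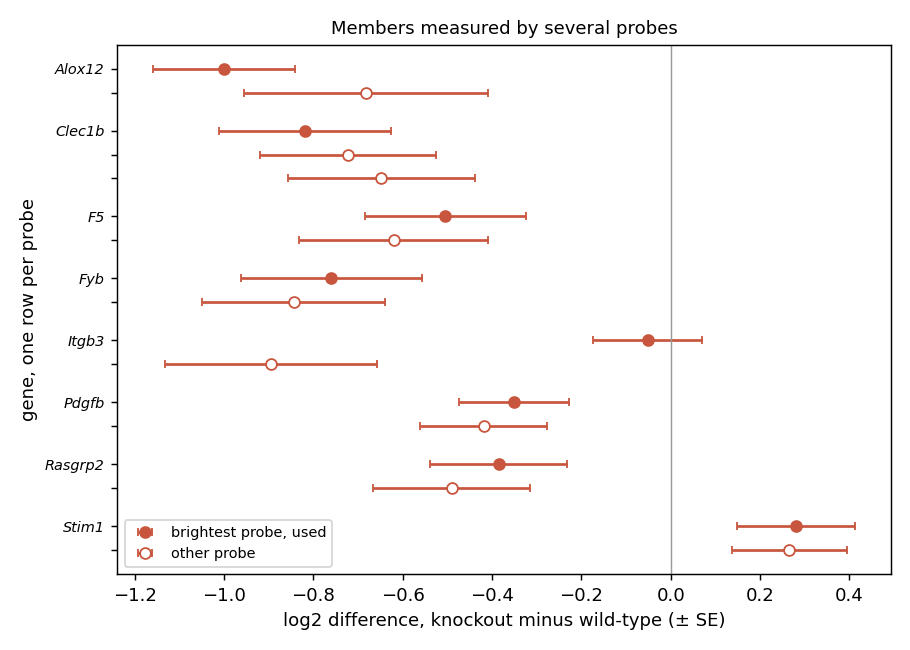
Log2 difference, knockout minus wild-type, with its standard error (x axis), for each probe that passed the filter of the 8 members with more than 1 such probe (y axis, 1 row per probe). Filled points are the brightest probe of a gene and open points the others; the probes of a gene lie within about 1 standard error of each other except for Alox12 (-1.0 and -0.68) and Itgb3 (-0.05 and -0.89).

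Of the 41 member probes that passed the filter, 35 were lower, against 54.7% of all 33866 such probes. Of these, 26 were lower at an unadjusted p under 0.05 (limma; 13.4% of all probes), and 0 passed when p-values were adjusted over all probes (0.0325% called lower).

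The 4 transcription factors all had a lower mean, against 54.3% of all genes, with a median difference of -0.25. Only 1 had separate groups (25%, against 9.21% of all genes), and a share of 4 genes says little. Gata1, the zinc finger factor that megakaryocytes share with erythroid cells, mast cells and eosinophils, read -0.98, -0.95, -1.18 and -0.97 in wild-type and -1.71, -1.53, -1.87 and -2.29 in knockout lungs. Its difference of -0.83 ± 0.16 (SE; 1.78-fold lower) did not pass (limma, adjusted p = 0.0628). Gfi1b, the repressor needed for megakaryocyte and red cell maturation, read 0.20, 0.15, -0.18 and -0.65 against -0.24, -0.78, -0.21 and -0.73, and the groups overlapped through wild-type replicate 4 (difference -0.37 ± 0.22 SE). Fli1, the ETS factor of megakaryocytes and of endothelium, read 1.44, 1.48, 1.48 and 1.43 against 1.38, 1.41, 1.49 and 1.03. Knockout replicate 4 was the lowest and only replicate 3 reached the wild-type range, and the difference was -0.13 ± 0.11 (SE; -0.03 without replicate 4). Nfe2, the p45 subunit that drives platelet release and is abundant in neutrophils too, read 3.31, 3.68, 3.44 and 3.58 against 3.60, 3.34, 3.07 and 3.68, with no separation (-0.08 ± 0.15 SE).

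Erythroid markers, which share Gata1, Gfi1b and Nfe2, had 7 of 9 measured members lower (of 15 listed), or 77.8% against 54.3% of all genes. Their median was -0.49, with 1 fully apart (11.1%, against 9.21% of all genes) and 0 past the threshold. Wild-type replicate 4 had a list mean of 0.0032, against 1.29 to 1.60 in the other wild-type lungs, and without it the median was -0.82. Their summed linear signal, in units of the 75th percentile, ran from 403 to 1004 in wild-type and from 492 to 606 in knockout lungs. Mast cell and basophil markers had 3 of 8 lower (of 10 listed; median 0.25, sums 50.8 to 130 and 40.1 to 84.6), and leaving out 1 sample gave a median of -0.14 (without knockout replicate 2) to 0.56 (without knockout replicate 3). The remaining markers of both lists did not pass the filter on dim probes or are not gene names of the array, and the part of these cells in the Gata1 difference was not tested.

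Ordered by where else the gene is active, from textbook knowledge, the 10 members listed as typical of the lineage were lower in 10 of 10 cases (median -0.63, 5 fully apart). With quantile normalization, in the authors' deposited value table and with array weights the count was 9, through Itgb3. It was also 9 without wild-type replicate 2 or knockout replicate 2, through Itgb3, and without knockout replicate 3, through Nfe2. These members are Pf4, Ppbp, Itga2b, Itgb3, Gp6, Treml1, Tubb1, Nfe2, Gata1 and Gfi1b, of which Itgb3, Nfe2, Gata1 and Gfi1b are active in other cells too, as given above. Their mean lay between 0.95 and 1.61 in the wild-type and between 0.57 and 0.76 in the knockout lungs. The 9 members shared with leukocytes, such as Fermt3, Fyb and Plek, were lower in 8 of 9 cases (median -0.66, 6 apart), with means of 2.40 to 2.75 and 1.79 to 2.11. The 13 measured members listed as shared with vessel wall or other lung cells were lower in 9 of 13 cases (median -0.35, 4 apart). The 4 were P2ry12, P2ry1, Alox12 and Nrgn. As given above, P2ry12 is also known from macrophages and Nrgn from neurons. Which cells the separation in this class comes from was not tested. In the order given, 100%, 88.9% and 69.2% of the classes were lower, against 54.3% of all genes. Fully apart and lower were 50%, 66.7% and 30.8%, against 9.21% of all genes.

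Pan-leukocyte and monocyte markers also had lower means in the knockout lungs, whereas the list means of neutrophil markers overlapped. Pan-leukocyte markers such as Ptprc (CD45) and Coro1a were lower in 9 of 9 measured cases (of 10 listed), against 54.3% of all genes. All 9 were lower at an unadjusted p under 0.05 (limma), against 13.4% of all genes, with a median of -0.67 and 0 past the threshold. Their summed signal ran from 392 to 527 in wild-type and from 228 to 348 in knockout lungs. Monocyte and macrophage markers were lower in 11 of 12 cases (median -0.72, sums 768 to 919 and 641 to 715), and neutrophil markers in 6 of 9 measured (of 10 listed; sums 914 to 1025 and 944 to 1054). The neutrophil median was -0.28, and it was -0.11 without wild-type replicate 2. Single neutrophil markers differed: Cxcr2 (-1.10 ± 0.24 SE) and Retnlg (-0.57 ± 0.17 SE) were lower with fully separate groups. These were 2 of 9 (22.2%, against 9.21% of all genes), and 3 of the 9 had a higher mean. The part of leukocytes in the member differences was not tested. Endothelial markers were lower in 5 of 10 cases (sums 208 to 310 and 244 to 431), lymphatic endothelial markers in 1 of 3 measured (of 6 listed; sums 73.5 to 101 and 68.7 to 95.4), and markers of lung epithelium in 5 of 10 (sums 1661 to 1987 and 1617 to 2054). Markers of other tissue were higher in the knockout lungs by mean, with 0 past the threshold and the list means of the genotypes overlapping. Fat markers were higher in 7 of 7 measured cases (of 8 listed; median 2.29, sums 7.06 to 95.2 and 8.44 to 258), cardiac muscle markers in 9 of 10 (median 1.51, sums 20.8 to 401 and 83.4 to 550), and smooth muscle markers in 7 of 8 (median 0.55, sums 62.3 to 109 and 70.8 to 224). Leaving out 1 sample gave medians of 1.42 to 3.92 for fat, 0.91 to 2.26 for cardiac muscle and 0.30 to 0.76 for smooth muscle. Their part in the member differences was not tested.

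**Figure D3:**
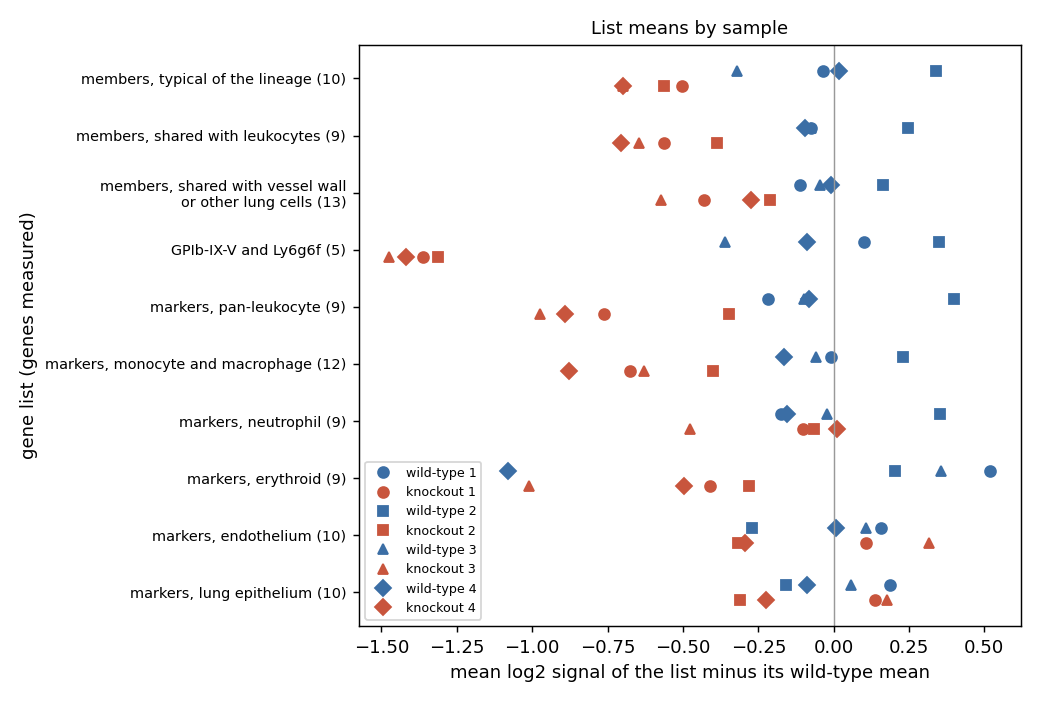
Mean log2 signal of each gene list in each lung, minus the wild-type mean of the list (x axis), for members grouped by where else they are listed as active, for the GPIb genes and for marker lists of other cells (y axis, with the number of genes measured); colours are genotypes and shapes replicate numbers. The 3 member classes, the GPIb genes, the pan-leukocyte and the monocyte lists are fully apart by genotype, while the neutrophil, erythroid, endothelial and epithelial lists overlap.

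The GPIb-IX-V genes and Ly6g6f, platelet surface genes outside this set, were lower in 5 of 5 cases with a median of -1.21, and 2 of them passed the test. Gp1ba differed by -1.32 ± 0.15 and Ly6g6f by -2.16 ± 0.20 (SE; limma, adjusted p = 0.0456 and 0.0315), and Ly6g6f was well above background on 2 of the 4 knockout arrays. Gp1ba missed the threshold with quantile normalization and in the authors' deposited value table (limma, adjusted p = 0.0514 each), with the mean of a gene's probes (0.0527), and when any sample other than knockout replicate 4 was left out (0.0565 to 0.128). Ly6g6f was at -0.86 with normexp, and missed the threshold without wild-type replicate 1 or 2 or knockout replicate 1, 2 or 4 (limma, adjusted p = 0.0554 to 0.0916). Whether the sets differ in size was not tested.

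A broader list of 44 genes of platelets and megakaryocytes, many of them active in other cells, gives the wider pathway. Of 41 measured, 30 were lower (73.2%, against 54.3% of all genes), and the median was -0.23. At an unadjusted p under 0.05, 17 were lower (41.5%, against 13.4%) and 1 was higher (10.2% of all genes). None passed the adjusted threshold. In 9 (22%, against 9.21%) every knockout sample lay below every wild-type sample, and in 1 above (6.1% of all genes). F13a1 and Esam also stand in the monocyte and endothelial marker lists. Plcg2, the phospholipase downstream of Gp6 and Clec1b, differed by -0.83 ± 0.16, and Gng11, a G protein γ subunit of platelets and endothelium, by -0.40 ± 0.089 (SE). Il11ra1, an interleukin-11 receptor chain that stromal cells use and that has near-identical copies in the mouse genome, was the gene higher at an unadjusted p under 0.05 (0.67 ± 0.10 SE; limma, adjusted p = 0.0568).

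The mice within a genotype also differed across the members. Wild-type replicate 2 was the highest wild-type sample for 23 of 32 members, and wild-type replicate 3 the lowest for 13. Among knockout lungs, replicate 2 was the highest for 11 and replicate 3 the lowest for 13. Averaged over the 32 members, the wild-type samples read 1.40, 1.72, 1.34 and 1.45 and the knockout samples 0.98, 1.105, 0.84 and 0.95, with no overlap. Wild-type replicate 2 also had the highest pan-leukocyte mean, 5.07 against 4.45 to 4.59 in the other wild-type samples, and a cardiac muscle marker mean of 3.66 against -0.37 to 0.94. The part of these in its member values was not tested. Without that sample the median over the members was -0.44, against -0.03 over all genes in the same fit. Counts of members are not given for this fit, since the shares of all genes beside them are not at hand.

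**Figure D4:**
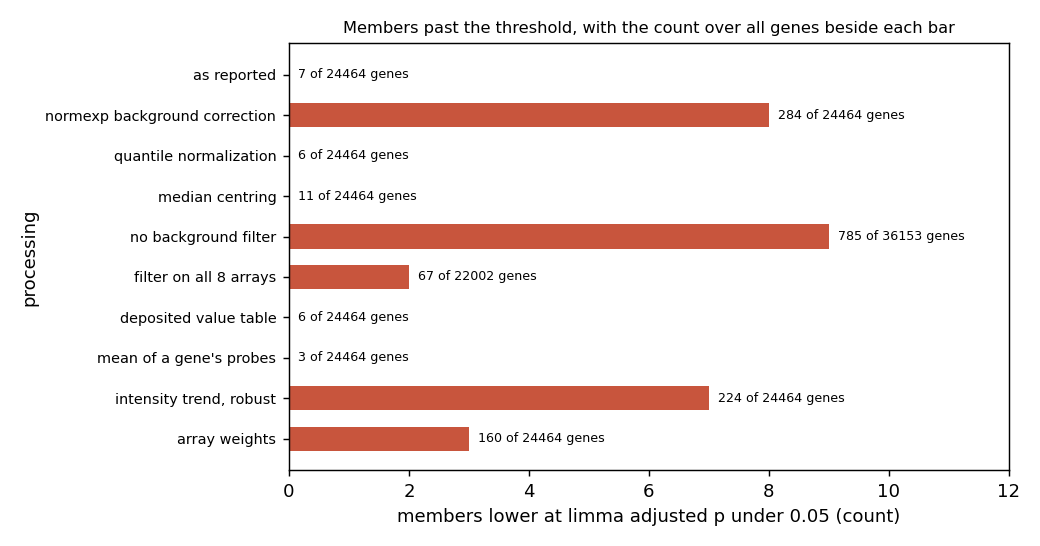
Number of members lower at a limma adjusted p under 0.05 (x axis, count) under each way of processing (y axis); beside each bar stands the number of all tested genes called lower. The count runs from 0 to 9 members; the settings with 0 members called 3 to 11 genes in all, and the setting with 9 members called 785 genes.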

How the data were processed

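Whole-lung RNA of 8 LPS-treated mice, 4 per genotype, was read on single-colour arrays. The submitters' processing notes name Agilent Feature Extraction 10.7.1.1 as the scan software. Per the file headers, the deposited files hold spot intensity, background-subtracted and detrended, with a surrogate value for spots not told from background. The authors' deposited value table holds log2 values. Each column followed the scanner's log2 processed signal of its array (r above 0.99), all shared a median of 5.63, with no normalization stated in the sources used here. The member median was -0.517 both in this value table and after quantile normalization, so these settings are not separate checks. Probe coordinates are on mm9, per the file headers.

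Control spots and outlier spots were left out, spots of a probe averaged and each array's 75th percentile was subtracted on the log2 scale. A probe had to be well above background on at least 3 of the 4 arrays in either genotype, and a gene's brightest probe was used. Genotypes were compared by limma (3.58.1, R 4.3.3; two-sided, Benjamini-Hochberg over all genes, threshold 0.05), checked on simulated data. Single values were compared by exact permutation. Members and lists were chosen with earlier results of these data known, so lists are described by counts and medians. Values in every sample are given for genes that define the lineage and for the 4 members of each functional group with the smallest p, and of the broader platelet list the 4 genes with the smallest p were to be named, of which 1 is not reported here. RefSeq promoter windows came from GRCm38.p6, which was used for names and sequences only. The number of arrays limits the precision.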

Additional observations from a re-analysis of the deposited data

Results flagged for a closer look

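In 5 of 64 groups of 4 samples (32 members, both genotypes), 1 sample lay farther from the rest than Dixon's 95% limit allows, where chance flags about 1 in 20 groups. For Gp6, knockout replicate 2 read -0.76 and the other knockout samples -1.93 to -1.80. For Bin2, wild-type replicate 4 read 0.53 and the other wild-type samples 1.17 to 1.28, and knockout replicate 4 read -0.18 against 0.21 to 0.22. For Mrvi1, wild-type replicate 3 read 1.02 against 0.68 to 0.72, and for Gata1 wild-type replicate 3 read -1.18 against -0.98 to -0.95.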

How the results depend on the processing

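Of the 32 members, 26 were lower and 5 higher in each of the 11 settings that kept all 8 samples. The replicate block, the intensity trend and the changed filters leave the differences of these members as they are. Their directions could therefore change only with another background correction, normalization, probe averaging or weighting. Itgb3 was the exception, at 0.020 with quantile normalization, 0.021 in the deposited value table and 0.00146 with array weights. The median over the members ran from -0.59 to -0.42 over these settings and from -0.65 to -0.44 when each sample was left out in turn. Leaving out 1 sample gave -0.12 to 0.014 for Itgb3, -0.17 to 0.037 for Nfe2, -0.15 to 0.26 for Tbxa2r, and -0.88 to -0.63 for the median of the cytoskeleton and signalling genes. No member was called in any of the 8 fits with a sample left out.

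Members called lower and all genes called lower and higher were 8, 284 and 228 with normexp background correction, 9, 785 and 2737 without a filter on dim probes, 2, 67 and 59 with a filter on all 8 arrays, 7, 224 and 143 with an intensity trend and 3, 160 and 142 with array weights. The cause was not tested. Those called were drawn from 9 members: P2ry12, Alox12, P2rx1, Bin2, Fermt3, Gata1, Treml1, Ppbp and Clec1b. Median centring called 11 genes lower, and the mean of a gene's probes 3 lower and 3 higher, with 0 members in both. With a sample left out, 0 to 12 genes were called lower and 1 to 11 higher. The median of the GPIb genes was -0.90 with normexp, and that of the broader platelet list -0.29 with median centring and -0.17 with the mean of a gene's probes.

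With the replicate number as a replicate block, 1 member (P2ry12) and 33 genes were called lower, and Gp1ba missed the threshold (limma, adjusted p = 0.0570). Deviations of same-numbered samples correlated at 0.13, 0.47, 0.012 and -0.29 for replicates 1 to 4. The best correlation of each wild-type sample with a knockout sample of another number was 0.27, 0.29, 0.043 and 0.24. Only replicate 2 matched its own number best, and these few values cannot settle whether the numbers pair the samples. A slide block was not run, since there was 1 slide. Dim probes limit what can be read of F2rl2 and F2rl3.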
